A study of Homo sapiens with 10 samples.

Results

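The genes described here encode the proteins of the cytoplasmic ribosome. They were chosen by name alone: every row of the expression matrix whose symbol is RPL, RPLP or RPS followed by a number and at most a final A or X, together with RPSA. The rule took 76 of 19301 named rows, which carry 69 gene names. Of these rows, 41 (40 names) belong to the large subunit and 35 (29 names) to the small subunit. RPS18 has 5 rows, of which 4 are listed at 0 in every library, and RPLP0 and RPSA have 2 rows each. The remaining 72 rows, 41 large and 31 small, had a mean of at least 1 FPKM (fragments per kilobase of transcript, scaled to the fragments mapped in a library) over all libraries and were tested.

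Polyadenylated RNA was measured in 10 libraries of HEK293FT, a line of human embryonic kidney origin that takes up plasmids readily. All cells carried Gaussia and Cypridina luciferase reporters integrated by lentivirus, and all received a plasmid for dCas9-VP64, a Cas9 without nuclease activity joined to a transcriptional activator. The group labelled CasVP received the activator and no guide. The other groups also received 1 of 4 guide plasmids, labelled sgRNA, INT, P4P6 and TOP1, each directed at the Gaussia reporter and at no ribosomal protein gene according to the labels. RNA was taken 3 days after transient transfection. Each of the 5 groups has 2 libraries, named here by the index 0 or 1 in the column names, which was not matched to the replicate numbers of the labels. No label states whether both libraries of a group are separate cultures, and p-values therefore measure only the spread between these samples, which may be technical. The libraries are bulk samples, in which fewer cells of a type and less RNA per cell cannot be told apart.

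A ribosome has a small subunit, which reads the mRNA, and a large subunit, which joins the amino acids, and each ribosomal protein is needed in about equal number. Their mRNAs are among the most abundant of growing cells, and most belong to the TOP class: they begin with a C followed by a run of pyrimidines (5′ terminal oligopyrimidine tract), through which mTOR signalling controls their translation and stability. The guide label TOP1 has no stated relation to this class. The reporter construct, the activator and the guides are no part of the ribosome.

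The starts of 15 ribosomal protein transcripts are shown because they are the feature that most members share and that the choice by name did not use. They include members with high and low levels, members with large differences between P4P6 and sgRNA or TOP1, and RPLP2 and RPS15, which did not follow the other members. Each line gives 10 bases before the annotated start and the first 20 bases of the first exon, from RefSeq on GRCh38.p14, read 5′ to 3′ on the transcribed strand. Capitals mark the run of pyrimidines that opens with C at the annotated start.
RPL39 (chrX:119791611-119791640, minus strand): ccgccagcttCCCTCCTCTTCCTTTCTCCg
RPS18 (chr6:33272065-33272094, plus strand): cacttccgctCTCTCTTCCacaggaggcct
RPL41 (chr12:56116623-56116652, plus strand): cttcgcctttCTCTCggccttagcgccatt
RPS6 (chr9:19380217-19380246, minus strand): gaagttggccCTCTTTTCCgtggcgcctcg
RPLP1 (chr15:69452808-69452837, plus strand): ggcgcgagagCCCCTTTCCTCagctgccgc
RPL31 (chr2:101002279-101002308, plus strand): ccttcgcgctCTTCCTTTCCaacttggacg
RPS21 (chr20:62387093-62387122, plus strand): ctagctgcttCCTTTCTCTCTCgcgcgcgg
RPL12 (chr9:127451387-127451416, minus strand): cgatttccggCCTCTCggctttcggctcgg
RPL27 (chr17:42998409-42998438, plus strand): gtgaaaggttagcggaagtgtccttctttc
RPLP2 (chr11:809957-809986, plus strand): tcggcgccttCCTTTTCCTCCCTgtcgcca
RPS15 (chr19:1438386-1438415, plus strand): aggcgcggacCaaagcgatctcttctgagg
RPL28 (chr19:55385922-55385951, plus strand): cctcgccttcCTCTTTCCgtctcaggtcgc
RPL27A (chr11:8682782-8682811, plus strand): gaaggccttcCTTTTTCgtctgggctgcca
RPS23 (chr5:82278335-82278364, minus strand): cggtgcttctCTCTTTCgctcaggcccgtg
RPS26 (chr12:56041908-56041937, plus strand): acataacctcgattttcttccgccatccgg

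An annotated start at C with at least 4 further pyrimidines was found in 42 of the 55 members with a RefSeq window (76.4%), against 1404 of 27305 genes of all kinds (5.14%). It was found in 26 of 33 large subunit members (78.8%) and 16 of 22 small subunit members (72.7%). Genes of the mitochondrial ribosome, a separate ribosome whose proteins are also encoded in the nucleus, had it in 6 of 69 cases (8.70%). Among the members that had it, the run was 5 to 19 bases long with a median of 8, and the longest was that of RPL39. RPLP2 has a run of 13 bases and RPS15 of 1. RPL27 and RPS26 are annotated to start at another base than C. A start a few bases from the annotated one would change this reading, and 14 members had no window in the table.

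A set of 4 other letter strings was searched on both strands of the windows from 250 bases before to 50 after the start. The ETS-type letters CCGGAAGT were in 9 of 55 members (16.4%) and in 4.95% of all genes, and the YY1-type letters AAGATGGC in 5 of 55 (9.09%) and 3.52%. The GC box GGGCGG was in 58.2% of members and 48.3% of all genes, and TATAAA in 9.09% against 14.0%. None of the letter strings contains another of the 4. These matches describe the reference sequence and are not binding sites.

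Ribosomal protein transcripts filled the top of the expression range. They were 9 of the 10 highest features by mean FPKM, 41 of the highest 50 and 62 of the highest 100. Together they made up 26.8 to 30.4% of summed FPKM in a library. Transcripts of members are short, with a median length of 805.5 bases in GENCODE against 3042 for the tested features with a transcript model (68 members and 9888 features). Their GC content had a median of 49.7% (42.1 to 63.6%), close to the 48.9% of the tested features.

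Within the class, mean levels over the 10 libraries spread widely although the proteins are used in about equal number. Over the first rows of the 68 names with a mean of at least 50 FPKM, the median was 2272 FPKM, with quartiles at 1582 and 3041. The median was 2272 for 40 large subunit genes and 2268 for 28 small subunit genes. RPL39, a short protein at the exit tunnel for the new chain, was highest at 7032 FPKM, followed by RPS18 of the head of the small subunit at 6178. Next came RPL41, a peptide that bridges the subunits, at 5680, RPS2 at 5497 and RPS6, the substrate of S6 kinase, at 4974. The lowest large subunit genes were RPL27A at 275, RPL28 at 292 and RPL22 at 418 FPKM, and the lowest small subunit genes were RPS23 at 335 and RPS26 at 360. The highest level was 25.5 times the lowest in the large subunit and 18.5 times in the small subunit. FPKM between genes rests on the transcript model and read assignment used by the authors, which the sources used here do not give. Ribosomal protein genes have many near-identical pseudogenes, so levels of single genes are uncertain by the reads such copies share.

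A few rows stand apart from their names. The second rows of RPSA, the laminin receptor protein of the small subunit, and of RPLP0, the base of the stalk, were at 88.4 and 65.6 FPKM on average, against 1554 and 1592 in the first rows.

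**Figure D1:**
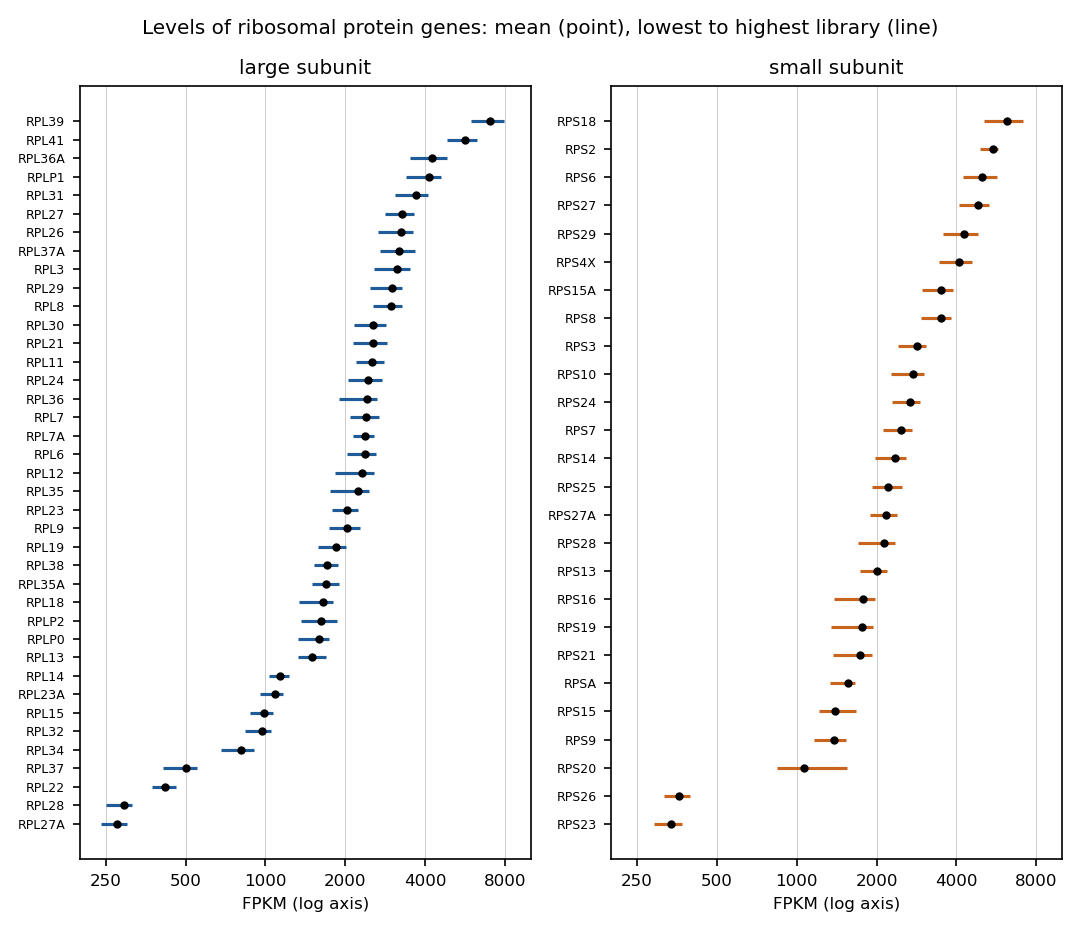
Mean FPKM over 10 libraries (point) and the range from the lowest to the highest library (line) for ribosomal protein genes, on a log axis, with 39 large subunit genes on the left and 26 small subunit genes on the right; second rows and a few genes not reported here are left out. The ranges are short beside the spread between genes, from 275 FPKM for RPL27A to 7032 for RPL39, and RPS20 has the widest range.

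Most genes kept their level across the libraries within narrow bounds. For the median of the 68 genes with a mean of at least 50 FPKM, the highest library was 1.31 times the lowest. The steadiest was RPS2, whose values ran from 4907 FPKM in P4P6 replicate 1 to 5737 in TOP1 replicate 1, a ratio of 1.17. RPL13, RPL7A, RPL38 and RPL14, all of the large subunit, followed by the SD of the log2 values. Among rows with a mean of at least 50 FPKM, RPS20, RPS15 and RPLP2 varied most, with SDs of 0.230, 0.174 and 0.156 on the log2(FPKM + 1) scale.

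Most of the variation was shared. On the log2(FPKM + 1) scale, the first principal component held 84.4% of the variance of the 70 rows with a mean of at least 50 FPKM. The mean of the members had an SD of 0.117 over the libraries, while the median SD of a gene about that mean was 0.0403. Pearson's r with the mean of the members, over 10 libraries and with the gene itself in that mean, was at least 0.9 for 60 of the 70 rows. It was lowest for RPLP2 (0.241), RPS15 (0.340), RPS20 (0.518) and RPL28 (0.658). All values of a library share its scaling, so these correlations are a description.

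The shared part ordered the libraries. As the median over the 72 rows of the log2 deviation from a gene's own mean, the highest libraries were TOP1 replicate 0 at 0.136 and sgRNA replicate 0 at 0.126, followed by TOP1 replicate 1 at 0.0915 and sgRNA replicate 1 at 0.0767. CasVP stood near the middle at 0.0284 and -0.00875, and INT at 0.00983 and -0.0969. The lowest were P4P6 replicate 0 at -0.137 and P4P6 replicate 1 at -0.232. Thus both P4P6 libraries lay below all others, and all 4 libraries of sgRNA and TOP1 above all others. P4P6 replicate 1 was the lowest library for 62 of the 72 rows. TOP1 replicate 0 was the highest for 37 rows, sgRNA replicate 0 for 22 and TOP1 replicate 1 for 10.

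As a share of summed FPKM the order was nearly the same. The members made up 27.4% ± 0.803 with P4P6, 28.7% ± 0.733 with INT, 29.2% ± 0.203 with CasVP, 30.1% ± 0.514 with sgRNA and 30.1% ± 0.436 with TOP1 (SD, n = 2 each). The shares of P4P6, 27.98 and 26.85%, did not overlap those of any other group, of which the nearest was INT replicate 1 at 28.2%. Averaged over its libraries, P4P6 was 7.13% below the mean of the other 8 libraries in this share. By the median over members of the level relative to each gene's own mean, the difference was -14.9%.

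**Figure D2:**
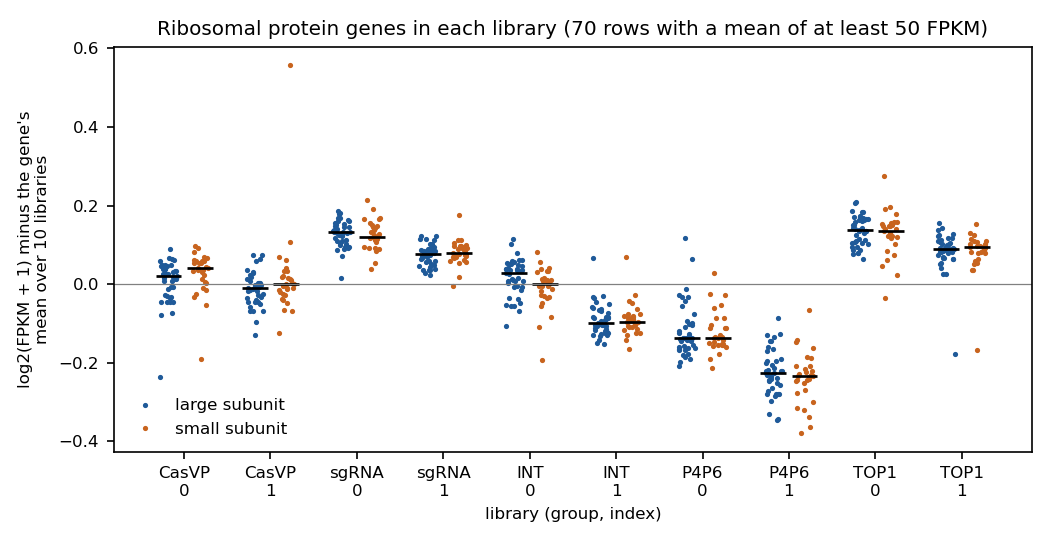
Deviation of log2(FPKM + 1) from the gene's own mean over 10 libraries, for 70 ribosomal protein rows with a mean of at least 50 FPKM, by library (group and index), with large subunit points in blue, small subunit points in orange and the median of each as a bar. The bars of both subunits move together, with P4P6 replicate 1 lowest and TOP1 replicate 0 and sgRNA replicate 0 highest; the lone point above 0.5 is RPS20 in CasVP replicate 1.

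The subunits kept a nearly constant balance. Summed FPKM of the large subunit was 1.22 times that of the small subunit in both CasVP libraries, 1.25 and 1.24 in those of TOP1 and in those of sgRNA, 1.24 in both P4P6 libraries, and 1.26 and 1.24 in those of INT. Both CasVP libraries were below all 8 libraries with a guide in this ratio, with no test made on it. When each gene was set against its own mean, the ratio of the subunits' medians in the CasVP libraries was 0.986 and 0.998, against 0.997 to 1.02 in the other libraries, so the CasVP libraries then overlapped the others. In P4P6, where the class as a whole was lowest, the median deviations were -0.137 for both subunits in replicate 0, and -0.226 for the large and -0.233 for the small subunit in replicate 1.

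P4P6 was first set against sgRNA, another guide to the same reporter, and most ribosomal protein genes were lower with P4P6. With limma and Benjamini-Hochberg adjustment over all 11574 features tested, a feature passed at an adjusted p under 0.05. In P4P6 against sgRNA 59 of 72 ribosomal protein rows passed, all lower with P4P6, where 11.5% of all features passed. The median log2 difference was -0.28 over the members and -0.01 over all features, and it was 0.00 under quantile normalization, which makes the values at each rank equal between libraries. Values of P4P6 lay below both sgRNA libraries, with no overlap, for 69 of the 72 rows, where 30.6% of all features did so. Of the large subunit 34 of 41 rows passed as lower (median -0.28) and of the small subunit 25 of 31 (median -0.28).

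RPL31, a protein beside the exit tunnel, shows the pattern. It was at 3809 and 3720 FPKM in CasVP, 4119 and 3914 in sgRNA, 3796 and 3381 in INT, 3191 and 3095 in P4P6, and 4050 and 3950 in TOP1. Both P4P6 values lay below all other libraries, and those of sgRNA and TOP1 above all others. The log2 difference of P4P6 was -0.35 against sgRNA (SE 0.0668, limma adjusted p = 0.0241) and -0.35 against TOP1 (SE 0.0668, adjusted p = 0.0119).

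Among the stalk proteins, which recruit translation factors, RPLP1 was at 3686 and 3401 FPKM in P4P6, against 4600 and 4500 in sgRNA and 4611 and 4209 in TOP1. It fell by 0.36 on the log2 scale against sgRNA (limma adjusted p = 0.0250). RPL12, at the base of the stalk, was at 2132 and 1830 in P4P6, against 2575 and 2399 in sgRNA and 2576 and 2494 in TOP1. Groups did not overlap for either gene. RPL12 had differences of -0.33 and -0.36 against sgRNA and TOP1 (limma adjusted p = 0.0378 and 0.0190). In each of these comparisons 3 of the 4 tested stalk members passed, the exception being RPLP2. Over the class 59 of 72 rows passed against sgRNA and 60 against TOP1. Of all features, 7.17 and 11.4% passed as lower. The counts by role below are to be read beside these, and no role was tested against the rest of the class.

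Around the exit tunnel and the site that signal recognition particle binds, 7 of 8 members passed as lower in each comparison. Of all features, 7.17 and 11.4% did so. RPL39 was at 6374 and 5947 FPKM in P4P6, against 7936 and 7579 in sgRNA and 7898 and 7210 in TOP1, and its difference from sgRNA was -0.33 (limma adjusted p = 0.0302). RPL38, the exception, was at 1614 and 1559 in P4P6 and 1789 and 1746 in sgRNA, and did not pass (-0.16, limma adjusted p = 0.177). RPL11, which with RPL5 and 5S rRNA forms the particle that binds MDM2 when assembly fails, was at 2267 and 2189 in P4P6, 2717 and 2690 in sgRNA and 2790 and 2777 in TOP1. It fell by 0.28 and 0.32 on the log2 scale against sgRNA and TOP1.

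In the head of the small subunit 7 of 11 rows passed as lower against sgRNA and 8 of 11 against TOP1. Of all features, 7.17 and 11.4% did so. RPS18 was at 5526 and 5072 FPKM in P4P6, 7134 and 6555 in sgRNA and 6865 and 6508 in TOP1. It had the largest fall of all members against sgRNA (-0.37, SE 0.0810, limma adjusted p = 0.0259). RPS19, the gene most often mutated in Diamond-Blackfan anaemia, was at 1683 and 1342 in P4P6 and 1935 and 1855 in sgRNA (-0.33, limma adjusted p = 0.0444). Of 15 tested rows of genes linked to that anaemia, 13 passed as lower against sgRNA and 14 against TOP1. Both P4P6 libraries of RPS18 lay below all others, while for RPS19 the higher of them lay above INT replicate 1, at 1658.

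In a further list of small subunit members (RPS2, RPS14, RPS21, RPS26, RPS27 and RPSA), 5 of 6 passed as lower in both comparisons. Of all features, 7.17 and 11.4% did so. RPS21 was at 1605 and 1366 FPKM in P4P6, 1915 and 1843 in sgRNA and 1921 and 1846 in TOP1, with log2 differences of -0.34 and -0.35. RPS2, the exception, had 5394 and 4907 in P4P6 against 5645 and 5565 in sgRNA (-0.12, 95% interval -0.27 to 0.02). RPS6 was at 4273 and 4224 in P4P6, 5556 and 5193 in sgRNA, and 5675 and 5274 in TOP1. Its log2 difference of -0.36 from TOP1 was the largest in that comparison (SE 0.0708, limma adjusted p = 0.0122).

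P4P6 against TOP1 used the same P4P6 libraries, so it is not independent of the comparison with sgRNA. Here 60 of 72 rows passed, all lower with P4P6, where 20% of all features passed (35 of 41 large and 25 of 31 small subunit rows). Groups did not overlap, with P4P6 lower, for 68 rows, where 32.5% of all features did so. The median was -0.29 over the members and -0.01 over all features, and -0.01 over the members under quantile normalization. RPL27, a large subunit protein, had close replicates, with 2844 and 2836 FPKM in P4P6 and 3648 and 3631 in TOP1 (log2 difference -0.36, SE 0.0549, limma adjusted p = 0.0101). RPL37A (-0.36), RPL36A (-0.35), RPL35 (-0.35), RPL3 of the peptidyl transferase region (-0.34), RPS10 (-0.34) and RPS16 (-0.34) followed with adjusted p-values of 0.0107 to 0.0249. Against sgRNA the differences of RPL3, RPL36A, RPS10 and RPL29 were -0.34, -0.34, -0.33 and -0.33.

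The rows that did not pass were largely the same in both comparisons. Among the 13 against sgRNA were RPL13, RPL14, RPL28, RPL36, RPL38, RPLP2, RPS2, RPS15, RPS20 and RPS28. Among the 12 against TOP1 were RPL18, RPL28, RPL36, RPL38, RPLP2, RPS2, RPS15 and RPS20. Several had P4P6 libraries far apart. RPL36 was at 2380 and 1892 FPKM in P4P6, against 2562 and 2482 in sgRNA (-0.25, limma adjusted p = 0.114). RPS28 was at 2081 and 1704, against 2260 and 2281 (-0.27, limma adjusted p = 0.0650). In both, P4P6 replicate 1 was the lower library and replicate 0 lay nearer to sgRNA. RPL28, at 305 and 250 in P4P6 and 295 and 298 in sgRNA, had groups that overlapped.

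These calls depend on the set of libraries and on the processing. In P4P6 against sgRNA 0 rows passed without either sgRNA library or without P4P6 replicate 1, 12 without either CasVP library and 61 without P4P6 replicate 0, while the median stayed between -0.34 and -0.24. In P4P6 against TOP1 the counts were 2 without TOP1 replicate 0, 21 without TOP1 replicate 1, 27 without P4P6 replicate 1 and 64 without P4P6 replicate 0. With only the libraries of the 2 groups compared, with quantile normalization, or after removal of GC and length trends, 0 rows passed in either comparison. Without the filter on low values 7 and 35 rows passed.

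**Figure D3:**
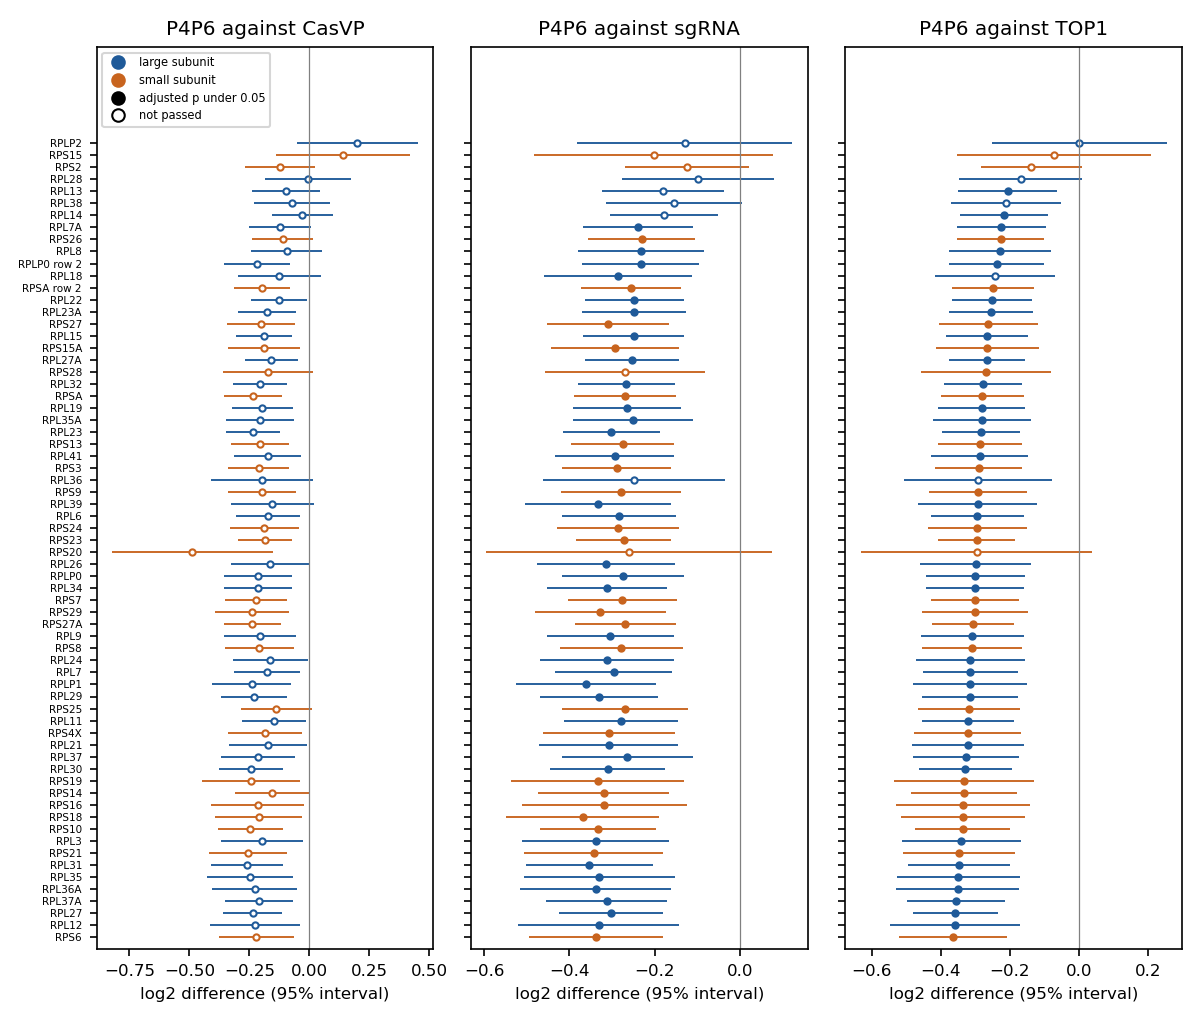
Log2 difference of FPKM + 1 between P4P6 and CasVP, sgRNA or TOP1 (one panel each) for 67 ribosomal protein rows, with the 95% confidence interval from limma as a line; filled points passed at an adjusted p under 0.05, blue is the large and orange the small subunit, and a few rows not reported here are left out. Nearly all points lie left of 0 in all panels, filled points are absent against CasVP, and RPLP2, RPS15, RPS2 and RPL28 stand nearest to 0 against TOP1; under quantile normalization the medians were at or within 0.02 of 0.

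The GC content of a transcript was correlated with these differences, within the class less so by rank. Across 68 members with a transcript model, r between GC content and the P4P6 to TOP1 difference was 0.454. Across 9888 features of all kinds it was 0.490. Spearman's rank correlation across the members was 0.286. For P4P6 against sgRNA r was 0.362 and 0.394, and the rank correlation across the members was 0.236. Between the P4P6 libraries themselves, replicate 1 minus replicate 0, r was -0.555 across the members and -0.120 across all features. Genes are not independent replicates, and these values describe the same libraries. RPLP2 and RPS15, whose differences from TOP1 were nearest to 0, have 63.6 and 61.6% GC, at or near the top of the class. With log transcript length, r across the 9888 features was 0.304 for P4P6 against sgRNA and 0.254 against TOP1. Across the members it was 0.170 and -0.0104. After removal of GC and length trends together, the median of the members was -0.11 against sgRNA and -0.13 against TOP1. Both medians were less than the values above by over 1.5 times and stayed below 0. The separate parts of GC and length in this change were not tested.

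**Figure D4:**
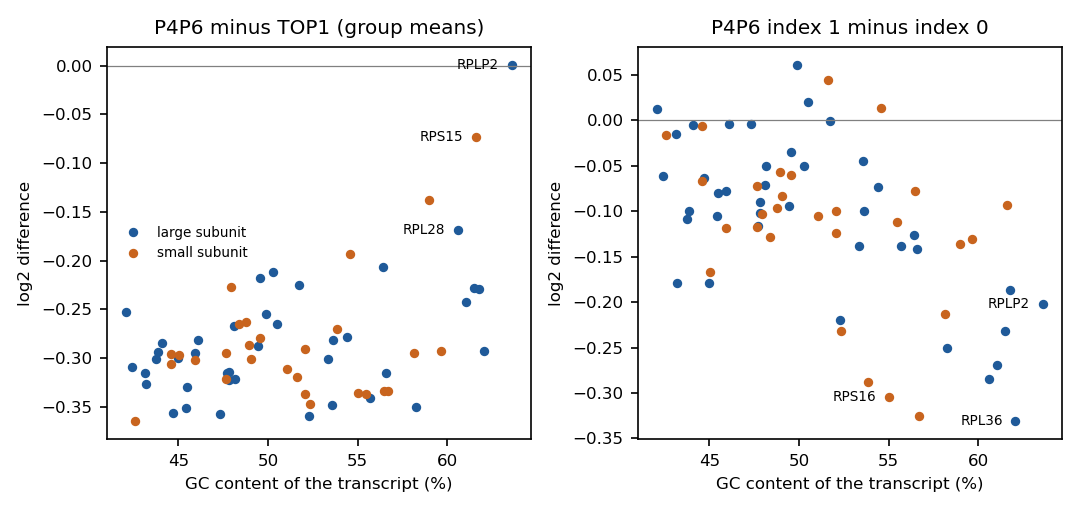
Log2 difference of FPKM + 1 against the GC content of the transcript (%) for 68 ribosomal protein genes, as P4P6 minus TOP1 group means on the left and P4P6 replicate 1 minus replicate 0 on the right, with large subunit points in blue and small subunit points in orange. On the left RPLP2 and RPS15 lie highest at the GC-rich end, and on the right GC-rich members such as RPL36 lie lowest.

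Depth and spread also differed between libraries. Relative to CasVP replicate 0, estimated depth was 0.694 and 0.797 in P4P6, 0.705 and 0.938 in sgRNA, and 1.02 and 0.740 in TOP1. It was 0.905 and 0.817 in INT and 0.884 in CasVP replicate 1. Both P4P6 libraries were thus below those of CasVP and INT, while sgRNA replicate 0 and TOP1 replicate 1 lay between the P4P6 libraries. Across all features the SD of the log2 difference between the libraries of a group was 0.188 in P4P6, against 0.104 to 0.141 in the other groups. Markers of HEK293-type cells (6 of 9 rows at a mean of at least 1 FPKM) summed to 316 to 390 FPKM in all libraries, and 9 rows for other cell types to 1.68 to 2.33, with 0 rows listed at 0 throughout. Among the latter, only COL1A1 had a mean over 1 FPKM. The sum of the HEK293-type list rests mostly on VIM, with a mean of 248 FPKM. In that list PAX2 (0.926), SOX11 (0.0205) and a second row of KRT8 (0.105) were under 1 FPKM. The part of depth and spread in the P4P6 result was not tested.

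Members with and without the pyrimidine run had like values. Of the 42 members with a C and at least 4 pyrimidines at the annotated start, 36 passed as lower against sgRNA (median -0.29). Of the 13 with another start, 11 did (median -0.28). Against TOP1 the counts were 37 of 42 and 12 of 13, with medians of -0.30 and -0.29. In the whole class 59 of 72 rows passed as lower against sgRNA and 60 against TOP1, where 7.17 and 11.4% of all features did. RPL27, without the run, fell as far as RPL31 and RPS6, which have it.

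Ribosomal protein genes that the name rule leaves out were lower as well. These 11 rows include FAU, which encodes a ribosomal protein fused to a ubiquitin-like sequence, and 9 rows with joint or older names, among them RPL5, RPL4, RPL10, RPL17, RPS3A, RPS12 and GNB2L1 (RACK1). All 11 passed as lower in P4P6 against both sgRNA and TOP1, where 7.17 and 11.4% of all features did so. The medians of the 11 rows were -0.28 and -0.30. FAU was at 721 FPKM with P4P6 (SD 61.5, n = 2), 890 with sgRNA (SD 13.3) and 924 with TOP1 (SD 5.57). Its log2 differences were -0.31 and -0.36. RPS12, listed jointly with a snoRNA, had -0.38 and -0.37.

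Genes of translation outside the ribosome gave mixed counts. Over all features, 7.17% passed as lower in P4P6 against sgRNA and 11.4% against TOP1, with medians of -0.01 in both. Of 11574 features, 6062 and 6160 had differences below 0, whether or not they passed. Of 15 rows of further TOP mRNA genes of translation, among them a second row of EEF1G, 11 passed as lower against sgRNA (73.3%, median -0.21). Against TOP1 12 of these rows did (80.0%, median -0.22). EEF1A1 and EIF4B were sought as well but had no row under that name alone. NPM1, a nucleolar chaperone, was at 1670 FPKM with P4P6 against 2078 with sgRNA, and TPT1 at 2086 against 2456. EEF2, the translocation factor, was at 1278 and 1296 (log2 difference -0.02, 95% interval -0.15 to 0.11), and EIF3F had an estimate of 0.08; neither passed. Of 8 paralogues of ribosomal proteins 3 passed as lower in each comparison (37.5%), among them RPL26L1 (-0.27 against sgRNA). Of 44 ribosome assembly genes 7 passed as lower against sgRNA (15.9%, median -0.15) and 17 against TOP1 (38.6%, median -0.17). Among them was EIF6, which keeps the subunits apart (-0.31 and -0.27). Mitochondrial ribosomal proteins gave 18 and 28 of 68 (26.5 and 41.2%, medians -0.15 and -0.17). The subunits of cytochrome c oxidase and ATP synthase, a set of short abundant mRNAs outside translation, gave 14 and 15 of 24 (58.3 and 62.5%, medians -0.21 and -0.20). None of these lists was tested against the members or against all features.

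Against CasVP, the cells without a guide, P4P6 gave 0 members that passed with limma, where 0.00864% of all features passed, although 54 of the 72 rows had an unadjusted p under 0.05 (22.2% of all features). The lowest adjusted p of a member was 0.0750. Values of P4P6 lay below both CasVP libraries, with no overlap, for 62 of 72 rows, where 28.1% of all features did so, and above them for 2 rows, RPLP2 and RPS15, where 23.4% did. The median was -0.20 over the members and -0.01 over all features, and over the members it was -0.01 under quantile normalization and -0.08 after removal of GC and length trends. RPL31 had an estimate of -0.26 (adjusted p = 0.0880) and RPS21 -0.26 (0.101), neither of which passed. Without P4P6 replicate 0, 22 rows passed, all lower, and 1 row passed without CasVP replicate 0.

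P4P6 against INT gave 0 members that passed with limma (0.00864% of all features) and 32 rows at an unadjusted p under 0.05 (11.2% of all features), with a median of -0.14 over the members against -0.01 over all features. Groups did not overlap, with P4P6 lower, for 52 of 72 rows, where 18.7% of all features did so. RPLP1, at 3686 and 3401 FPKM in P4P6 and 4152 and 3959 in INT, had an estimate of -0.20 (limma adjusted p = 0.413), as had RPL26, RPS16 and RPL31 with -0.19 each. The median over the members was -0.02 under quantile normalization, -0.08 after removal of GC and length trends, and -0.08 without INT replicate 0. One row passed without INT replicate 1.

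The other guides gave smaller differences from CasVP. With sgRNA 0 members passed with limma (0.0173% of all features), 6 had an unadjusted p under 0.05 (6.02% of all features), and the median was 0.09, or 0.00 under quantile normalization. The libraries of sgRNA were above both CasVP libraries for 62 of 72 rows, against 24% of all features, and below both for 1 row, against 22%. With TOP1 0 members passed with limma (0.00864% of all features), 6 had an unadjusted p under 0.05 (9.22% of all features), and the median was 0.10, or 0.00 under quantile normalization. There 61 rows were above both CasVP libraries, against 24.7% of all features, and 0 below both, against 23.5%.

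RPL14, RPS25, RPS14 and RPL11 had the largest estimates without overlap in TOP1 against CasVP, from 0.17 to 0.19, and none passed. RPL11 stood at 2790 and 2777 FPKM in TOP1 against 2467 and 2471 in CasVP (limma adjusted p = 0.501). RPL39 and RPS14 had 0.18 and 0.16 in sgRNA against CasVP. All features tested had medians of 0.00 in both comparisons.

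With INT the median from CasVP was -0.05, and 0 members passed with limma (0.0173% of all features) with 8 at an unadjusted p under 0.05 (8.86% of all features). Only 22 of 72 rows were below both CasVP libraries, against 23.1% of all features, and 3 were above, against 20.3%. RPS27A, a ubiquitin fusion gene, had -0.15 and RPS29 -0.14, and RPL14 and RPL28 had 0.13 and 0.11; none passed. The median was -0.11 without INT replicate 0 and 0.00 without INT replicate 1, so it rested on the latter library.

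INT was lower than the other 2 guides in the same sense. Against sgRNA the median was -0.15 with 0 members past the threshold (0.00864% of all features) and 40 at an unadjusted p under 0.05 (8.77% of all features), and 63 of 72 rows lay below both sgRNA libraries, where 23.3% of all features did. Against TOP1 the median was -0.15 with 0 members past it (0% of all features) and 42 at an unadjusted p under 0.05 (14.2% of all features), and 65 rows lay below both TOP1 libraries, where 24.3% of all features did. Under quantile normalization the medians were 0.00 and -0.01. Without INT replicate 1 the medians were -0.088 against sgRNA and -0.094 against TOP1.

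TOP1 and sgRNA were close to each other. With limma 0 members passed (0.00864% of all features) and 0 had an unadjusted p under 0.05 (1.68% of all features). The median was 0.01, with quartiles of -0.00444 and 0.0263. Only 6 rows were above and 2 below without overlap, where 15.1 and 14.1% of all features were. For RPLP1 the difference was -0.05, with a 95% interval of -0.21 to 0.12.

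Within groups, the library with index 1 tended to hold less ribosomal protein RNA. It was the lower of the pair for 48 of 72 rows in CasVP, 66 in sgRNA, 67 in INT, 65 in P4P6 and 55 in TOP1, with medians of -0.03, -0.05, -0.11, -0.10 and -0.05. With the index as a term beside the groups, the median difference was -0.07 over the members and 0.00 over all features. With limma 0 members passed (0.121% of all features), and 34 had an unadjusted p under 0.05 (19.6% of all features). Index 1 was lower in all 5 groups for 33 rows, where 11% of all features were. It was higher in all 5 groups for 1 row, where 8.75% of all features were. What the index stands for is not known, and the difference between libraries of 1 group was about as large as that between INT and CasVP.

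RPLP2, RPS15 and RPS20 did not follow the rest. RPLP2, an acidic stalk protein, was at 1367 and 1472 FPKM in CasVP, 1810 and 1755 in sgRNA, 1553 and 1689 in INT, 1747 and 1519 in P4P6, and 1862 and 1423 in TOP1. Both CasVP libraries and TOP1 replicate 1 were low, and the P4P6 libraries lay among the others. RPLP2 differed between P4P6 and TOP1 by 0.00 on the log2 scale, with a 95% interval of -0.25 to 0.25. The median of the members was -0.29. RPLP2 was picked from the class for its values, so its interval is no test of a departure from that median.

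RPS15, of the small subunit head, was at 1213 and 1271 FPKM in CasVP, 1582 and 1566 in sgRNA, 1213 and 1454 in INT, 1412 and 1324 in P4P6, and 1678 and 1233 in TOP1. It was high and low in nearly the same libraries as RPLP2. The estimates against CasVP were 0.34 for RPS15 and 0.33 for RPLP2 in sgRNA, the largest of all members, and 0.14 and 0.20 in P4P6. None of these passed (limma adjusted p = 0.791 for both in sgRNA, 0.549 and 0.330 in P4P6), and their P4P6 libraries lay above both CasVP libraries.

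RPS20, also of the head, was at 1009 and 1541 FPKM in CasVP, 1087 and 1043 in sgRNA, 1022 and 933 in INT, 942 and 839 in P4P6, and 1093 and 1091 in TOP1. The value of CasVP replicate 1 stood apart from the other 9. The difference of P4P6 from CasVP was -0.49 (SE 0.151, limma adjusted p = 0.116), and it was -0.18 without CasVP replicate 1 and -0.79 without CasVP replicate 0, the fit in which RPS20 passed.

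**Figure D5:**
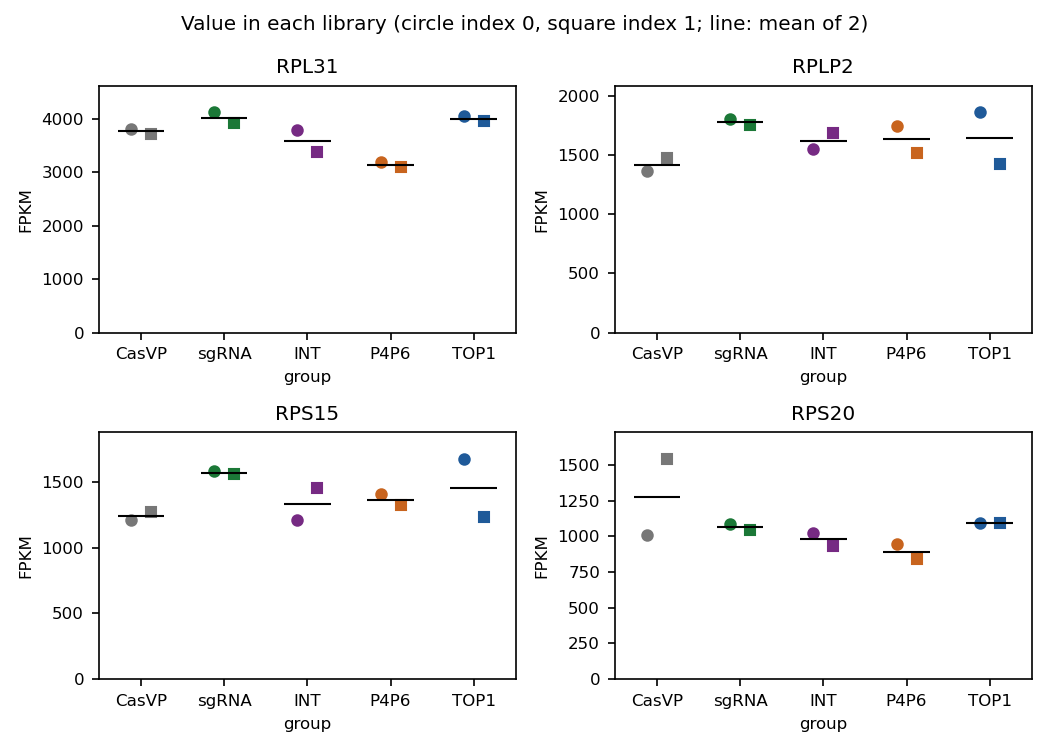
FPKM in each library for RPL31, RPLP2, RPS15 and RPS20 by group, with circles for index 0, squares for index 1 and a line at the mean of the 2 libraries; all axes start at 0. RPL31 is lowest in both P4P6 libraries, RPLP2 and RPS15 are low in CasVP and in TOP1 replicate 1, and RPS20 is high in CasVP replicate 1 alone.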

How the data were processed

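The authors deposited FPKM values, a column for each library. The submitters' processing notes name TopHat2 2.0.13, Cuffdiff 2.2.1 and hg19; their roles, the annotation and how libraries were scaled are not given in the sources used here. Of 20246 rows, 945 have no gene name and were left out. A pseudocount of 1 was added and log2 taken, so folds of low genes are understated. The 11574 features with a mean of at least 1 FPKM were fitted with limma 3.58.1 (R 4.3.3), using an intensity trend and a mean for each group over all 10 libraries, which leaves 5 residual degrees of freedom. Tests were two-sided, with Benjamini-Hochberg adjustment within each of 10 comparisons of groups and 1 of the index. The test was also run on simulated data with noise drawn independently for each feature and library. Variation shared between members was not part of that run, so it does not bear on the member counts.

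Read counts were not used here. Depth relative to CasVP replicate 0 was estimated from features with a mean of at most 0.05 FPKM, where 73.8% of 8732 values were whole multiples of a step within 0.05. Length and GC came from GENCODE transcripts. Groups of 2 libraries limit the precision.

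Named members were those past the threshold (up to 12 each way by size), the 4 with the largest differences each way without overlap in a comparison with CasVP or of P4P6, the 5 highest and lowest by level and by SD, and a list by role. RPL38, RPL36, RPS2, RPS12, NPM1 and EEF2 in P4P6 comparisons, other genes named outside this rule, and the transcript starts shown, were chosen after their values were seen. The members, lists and tests were chosen with earlier results of these data known. A few members are not reported here by name. The alternatives tried are given in the closing section.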

Additional observations from a re-analysis of the deposited data

How the results depend on the processing

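The alternatives run were another pseudocount, filter, scaling or model, a replicate block, and each library left out. In the comparisons for which members were named, only RPL36A in P4P6 against sgRNA changed sign, at 0.00 (0.00198) under quantile normalization. A difference of exactly 0 was not counted as a change of sign, and in that fit the median of the members was 0. Members that passed in P4P6 against sgRNA were 7 without a filter, 33 with library weights, and 0 with quantile normalization, with libraries of the 2 groups only, or after removal of GC and length trends (chosen after seeing the data). In P4P6 against TOP1 they were 35 without a filter and 0 under the other 3. With library weights 1 member passed for the index. Leaving out 1 library gave 0 to 61 in P4P6 against sgRNA, 2 to 64 against TOP1, 0 to 22 against CasVP, and 0 to 1 in P4P6 against INT and in INT against CasVP, sgRNA and TOP1; a lone library was assumed to vary like the others.

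Quantile normalization gives equal values to the ranks that members fill (62 of the highest 100). Its medians were 0 (0.00) in sgRNA against CasVP, INT against sgRNA and P4P6 against sgRNA, 0.0033 in TOP1 against CasVP, -0.00887 in P4P6 against CasVP, -0.0152 in P4P6 against INT, -0.0115 in P4P6 against TOP1, -0.00691 in INT against TOP1 and -0.00689 for the index. After removal of GC and length trends (GC known for 85.4% of features and 72 of 72 members) they were 0.0409 in sgRNA, -0.0816 in P4P6 and 0.0501 in TOP1 against CasVP, -0.0461 in INT and -0.111 in P4P6 against sgRNA, -0.0785 in P4P6 against INT, -0.126 in P4P6 against TOP1 and -0.0518 in INT against TOP1. Without 1 library at a time, medians ran from -0.113 to 3.27e-05 in INT against CasVP, -0.192 to -0.0876 in INT against sgRNA, -0.200 to -0.0943 in INT against TOP1, -0.243 to -0.137 in P4P6 against CasVP, -0.197 to -0.0829 in P4P6 against INT, -0.337 to -0.239 in P4P6 against sgRNA and -0.342 to -0.242 in P4P6 against TOP1. The share of FPKM in P4P6 was -14.9% from the other libraries by the median of members, against -7.13% by the sum. Beyond the equal ranks, and the fewer libraries in fits that leave some out, the cause of these changes was not tested.

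With a replicate block, that is, the index as a pairing, 40 members passed in P4P6 against CasVP, all lower. Of all features, 5.18% passed in that comparison, whether lower or higher. With the block, 64 members passed in P4P6 against sgRNA, all lower, where 20.1% of all features passed. In P4P6 against TOP1 65 members passed, all lower, where 28% of all features passed. Deviations of like-numbered libraries correlated at -0.036 to 0.415 over 10 pairs of groups, 8 of them over 0.1. The labels do not say that the index marks a shared batch or culture, so the fit without the block was kept, and whether the index pairs the libraries was not settled.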
